A study of Mus musculus with 10 samples.

Results

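The genes described here encode the constitutive proteasome, and they were followed in whole livers of young and old male mice. Members were taken by name: of 24537 gene symbols in the count table, 45 began with Psma, Psmb, Psmc, Psmd or Psme and a digit. The 3 catalytic subunits of the immunoproteasome, Psmb8, Psmb9 and Psmb10, were set aside, and a mean of at least 10 counts over the 10 livers was required. That left 41 members. By the mean count, Psma8 lay just inside with a mean of 15.8 counts, and Psmb11, the thymus form of a catalytic subunit, lay outside with 0 counts in every liver. By role, 15 members belong to the core particle, 17 to the regulatory particle, 5 are activators and 3 are assembly chaperones. Psmc3ip carries the name pattern but encodes a meiotic recombination factor and no subunit. All 41 members were among the 13909 genes that passed the filter on low counts.

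RNA was sequenced from 10 livers. The knockout used AAV8, a liver-seeking adeno-associated virus, to deliver the compact enzyme saCas9 under TBG, a promoter active in hepatocytes, so other liver cells were not meant to be edited. The young controls (3 livers) are labelled Rosa26-KO, a locus used as a neutral target, and were 9 months old with virus given at 7 months. The old controls (3 livers) carry the same Rosa26-KO label and were 25 months old with virus given at 23 months. The old Cd44 knockout livers had the ages of the old controls, 2 labelled g2 and 2 labelled g4, called guide 2 and guide 4 here; Cd44 is a receptor for hyaluronan. By these labels the controls were edited too, and livers without virus were not analysed here. The strain is not given in the sources used here, and nothing in the labels says outright that each library came from a separate animal, so p-values measure the spread between these libraries only.

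Total counts ranged from 15821198 to 21710228 per liver. The livers were checked before the members were read. Markers of hepatocytes dominated every liver, with 9 measured marker genes summing to 113888 to 141472 CPM in young livers and 95964 to 118312 CPM in old control livers, where CPM is the depth-normalised read count (counts per megaread), scaled by the trimmed mean of M values (TMM). The level of Cd44 in livers labelled knockout was not called different from old controls (log2 fold change -0.25, SE 0.30, edgeR adjusted p 0.896). It measured 14.2, 29.99 and 25.9 CPM in old controls, 17.6 and 13.1 CPM for guide 2 and 18.9 and 29.0 CPM for guide 4. Both guides overlapped the old controls, at log2 differences of -0.60 (SE 0.34, adjusted p 0.778) for guide 2 and 0.04 (SE 0.33, adjusted p 0.998) for guide 4, so every knockout direction below rests on the labels. Old control replicate 3 stood apart from the other livers, at 48.0 on the second principal component (15.9% of the variance) where old control replicates 1 and 2 lay at -33.2 and 23.4. On the first component (50.1%) it lay at -5.7, between the young livers (-64.5 to -42.2) and the other old livers (2.4 to 53.3). Leaving it out thus removes the old liver nearest the young ones on that component. Its library name lies outside the numbering of the rest. The main results it moves are given with and without it.

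The proteasome is the protease that degrades proteins tagged with ubiquitin. Its core particle is a barrel of alpha rings, which gate the entrance, and beta rings, in which Psmb5, Psmb6 and Psmb7 carry the active sites. The regulatory particle caps the barrel: its base holds the ring of Psmc ATPases that unfold substrates and ubiquitin receptors, and its lid holds Psmd14, which removes the ubiquitin chain. Other caps, built from Psme genes, can open the barrel without ubiquitin. The genes are widely expressed as a set, and the transcription factor NFE2L1 is known to raise many of them through antioxidant response elements when proteasome activity falls.

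Because the members are known to be controlled together, their promoters were searched for the antioxidant response element (TGACNNNGC, N standing for any base) and for the CCAAT box (CCAAT) on both strands. The windows were those of RefSeq on GRCm38.p6, from 250 bases before to 50 bases after a start site, and 34 of the 41 members had one. The element was found in 6 members (17.65%), near its share of 13.99% over all genes in that table and 12.39% over all windows. The 6 were Psmb5, Psmb6, Psmc6, Psmd12, Psmd9 and Psme4. The CCAAT box was found in 13 members (38.24%), against 41.06% of all genes and 37.41% of windows. A match is a description of letters and shows no binding. The stretches below, which overlap no exon of the gene in GENCODE M21, hold the response element in capitals in 4 members that have different roles, 5′ to 3′ on the gene's strand.
Psmb5, chr14:54618023-54618066, minus strand: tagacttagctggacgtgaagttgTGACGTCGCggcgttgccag
Psmc6, chr14:45329574-45329629, plus strand: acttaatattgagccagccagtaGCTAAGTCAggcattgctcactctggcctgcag
Psmd12, chr11:107479278-107479313, plus strand: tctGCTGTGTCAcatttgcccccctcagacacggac
Psmd9, chr5:123228135-123228189, plus strand: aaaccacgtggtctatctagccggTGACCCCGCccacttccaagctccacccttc

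In Psmb5 the element began 47 bases before the start site, and in Psmd9 it began 31 bases before it. The Psmd9 stretch ends at the first exon of its main coding transcript, but lies within the gene's annotated span, which a longer transcript carries farther upstream. In Psmc6 and Psmd12 it lay on the opposite strand, 227 and 247 bases before the start. Psmd14, the lid gene with the lowest fold change in old livers, had no response element in its window but held the CCAAT box, as did Psmc2, the base gene with the lowest. Of the other members called lower in old controls further on, Psma3 and Psme3 held the box. Psma5, Psmb5, Psmc4, Psmd6, Psmd12 and Psmd13 did not, and Psmb7 and Psmd7 had no window. A link between the box and age was not tested. In the stretches below the box is in capitals, reversed in Psmd14, 159 bases before the start there and 28 bases before it in Psmc2.
Psmd14, chr2:61711511-61711563, plus strand: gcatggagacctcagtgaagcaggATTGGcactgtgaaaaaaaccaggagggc
Psmc2, chr5:21785223-21785274, plus strand: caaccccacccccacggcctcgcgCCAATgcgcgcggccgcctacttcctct

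Subunits of 1 complex were present at unlike transcript levels. On the scale of mean CPM per kilobase of transcript in young livers, Psmb6 was highest at 175, followed by Psma4 at 146, Psmb7 at 144 and Psmb3 at 141. The lowest core subunits of the liver were Psma2 at 36.2 and Psma3 at 57.7, leaving aside Psma8, a testis subunit that lay at 0.511. In the regulatory particle the ubiquitin receptor Psmd4 was highest at 109.9 and the lid subunit Psmd13 lowest at 36.9. Of the activators, Psme1 stood at 121 and Psme2 at 80.6, while Psme3 stood at 32.1 and Psme4 at 13.9. The chaperones Psmd5, Psmd10 and Psmd9 lay below every core and regulatory gene other than Psma8, at 8.36, 8.52 and 12.9. These levels depend on the transcript chosen for the length, which was the longest transcript marked principal in GENCODE M21, or the longest coding one where none was marked.

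Old control livers were first compared with young ones. A set of regulatory, core and activator genes fell and none rose past the threshold, led by the deubiquitinase Psmd14, which fell by 39.6%, and the lid subunit Psmd6, which fell by 36%. In all, 12 of 41 members (29.3%) were called lower at an adjusted p under 0.05 (edgeR, quasi-likelihood, Benjamini-Hochberg over all genes), where 8.66% of all genes tested were called lower. None of the 41 was called higher, where 14.1% of all genes were. Of the members, 38 of 41 had a log2 fold change below 0 against 47.6% of all genes, and the median over members was -0.37 where the median over all genes was 0.04. In 23 of 41 members (56.1%) the highest old control liver lay below the lowest young liver in CPM (TMM), which held for 18% of all genes. With scaling to total counts most of these 23 overlapped, such as Psmb5 and Psme3. Those that stayed separate were Psmb7, Psmc2, Psmc4, Psmd6, Psmd7, Psmd12, Psmd13 and Psmd14.

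These directions are on the TMM scale, which assumes that most genes do not change, and they are relative to the rest of the transcriptome. With scaling to total counts the median of all genes moved by 0.31, to 0.34, and that of the members moved along to -0.05, with 26 of 41 below 0 and 1 member, Psmd14, called lower (2.44%, against 2.55% of all genes). With upper quartile factors the median of all genes moved by 0.11, the median of the members was -0.25, and 5 members (12.2%) were called, all lower, against 5.2% of all genes. The distance of the members' median below that of all genes was 0.40 on the TMM scale, 0.40 with upper quartile factors and 0.39 with total counts, where these distances are differences of log2 fold changes. A change of library factors shifts all genes by nearly the same amount, so these distances were bound to stay close and are no separate check. The members together took 0.352% to 0.366% of all counts in young livers and 0.337% to 0.357% in old control livers. In whole liver, fewer cells of a type and less RNA per cell cannot be told apart.

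**Figure D1:**
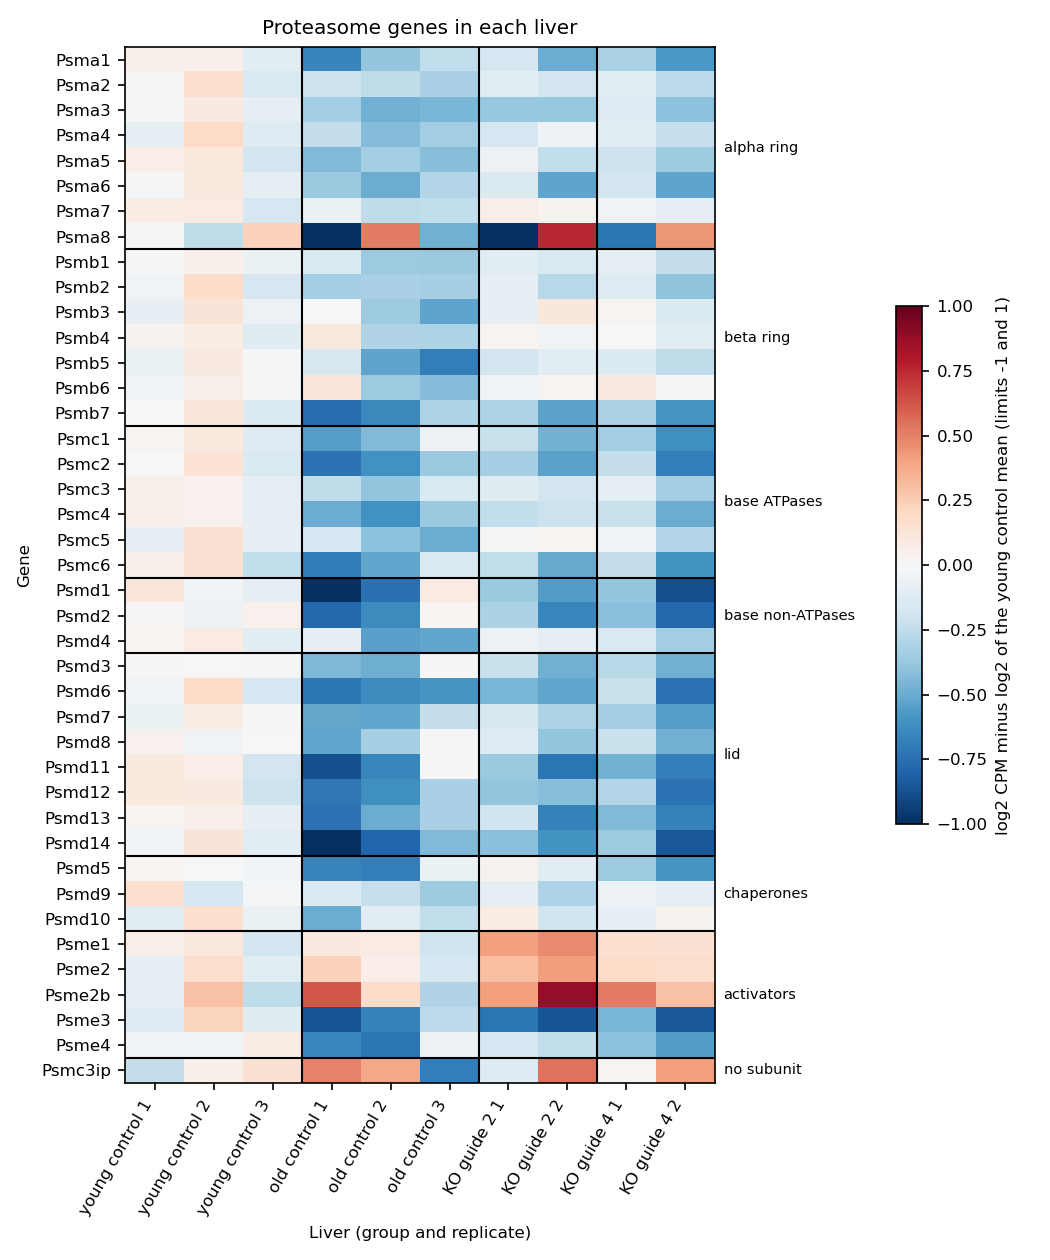
Each row is a member gene, ordered by its place in the proteasome, and each column a liver; colour is log2 CPM (TMM) minus log2 of the young control mean, cut at -1 and 1. Most core and regulatory rows are below 0 in old livers on this scale, while Psme1, Psme2 and Psme2b are above 0 in most; with scaling to total counts, 15 of 41 age differences are above 0.

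Of the core particle, 4 of 15 genes fell (26.7%), 2 in each ring, where 8.66% of all genes were called lower. The median log2 fold change was -0.33 with all 15 below 0 on the TMM scale. With total counts it was -0.02, where 8 were below 0, 7 above and none was called. Psmb7 encodes the subunit with trypsin-like activity (chromosome 2, 38588036 to 38644087, minus strand in GRCm38). It measured 167, 182 and 152 CPM in the young livers, 98.3, 107 and 135 CPM in the old control livers, 135 and 115 in the guide 2 pair and 134 and 111 in the guide 4 pair. All 3 old control livers lay below the young ones, and Psmb7 fell with age by 32.2%, or -0.56 (SE 0.15) on the log2 scale (edgeR adjusted p 0.0253). Psmb5 encodes the subunit with chymotrypsin-like activity, the main target of proteasome inhibitors (chromosome 14, 54614119 to 54618022, minus strand). Its values were 95.1, 107 and 99.1 CPM in the young livers, 89.7, 69.4 and 61.9 CPM in the old control livers, 88.5 and 93.2 in the guide 2 pair and 91.1 and 84.1 in the guide 4 pair. The groups of control livers did not overlap on the TMM scale, though old control replicate 1 came close to the young range. Scaled to total counts, that liver was at 99.3 CPM, above the young livers at 81.5, 87.7 and 88.9 CPM. The log2 fold change of Psmb5 on the TMM scale was -0.44 (SE 0.14) with an edgeR adjusted p of 0.0443.

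The third catalytic gene, Psmb6, with caspase-like activity (chromosome 11, 70525367 to 70527858, plus strand), did not pass the test. It stood at 136, 146 and 138 CPM in the young livers, 152, 109 and 104 CPM in the old control livers, 136 and 142 in the guide 2 pair and 149 and 138 in the guide 4 pair. Old control replicate 1 was the highest of all 10 livers for Psmb6 while replicates 2 and 3 were the lowest, so the groups overlapped, and the log2 fold change of -0.20 (SE 0.15) had an adjusted p of 0.338. Psmb4, a structural beta subunit, had the log2 fold change nearest to 0 in the core, -0.15 (SE 0.14), with an adjusted p of 0.432. Its levels were 140.01, 144 and 126 CPM in the young livers and 147, 111 and 109.9 CPM in the old control livers. Again old control replicate 1 was above every young liver and the other old controls below. In the alpha ring, Psma3 fell by 25.5% and Psma5 by 24.2%, with adjusted p of 0.0315 and 0.0387. The other 6 alpha genes had log2 fold changes between -0.42 and -0.19, and none of these passed the test. Psma8 was measured by few counts, between 0.344 and 1.46 CPM, with an SE of 0.56, so a difference could not be seen at this depth.

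In the regulatory particle 7 of 17 genes fell (41.2%), where 8.66% of all genes were called lower. Every one of the 17 log2 fold changes was below 0 on the TMM scale (15 of 17 with total counts), with a median of -0.43. The calls were denser in the lid, with 5 of 8 genes, than in the base, with 2 of 9, a difference that was not tested. At an unadjusted p under 0.05 (edgeR) the counts were closer, 6 of 8 and 5 of 9, where 38.5% of all genes were. The base scaffolds Psmd1 and Psmd2 were not called here but were without old control replicate 3. Psmd14 (chromosome 2, 61711694 to 61800376, plus strand), the enzyme that cuts ubiquitin chains off substrates, measured 81.1, 90.5 and 76.9 CPM in the young livers, 41.3, 47.8 and 60.9 CPM in the old control livers, 62.1 and 54.6 in the guide 2 pair and 64.4 and 45.9 in the guide 4 pair. The highest old liver of any kind lay below the lowest young liver. With age Psmd14 changed by -0.73 (SE 0.17) on the log2 scale, and its edgeR adjusted p was 0.0155. Psmd6, a lid subunit (chromosome 14, 14112174 to 14120984, minus strand), stood at 83.2, 97.4 and 75.4 CPM in the young livers, 51.9, 55.1 and 56.9 CPM in the old control livers, 62.2 and 59.6 in the guide 2 pair and 73 and 51.1 in the guide 4 pair. Old control livers were tightly grouped and all below the young, and the log2 fold change was -0.64 (SE 0.15) with an adjusted p of 0.0148.

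Psmd12, Psmd13 and Psmd7, the last being the inactive partner of Psmd14, also fell, by 31.3%, 29.8% and 25.1%. Psmd7 (chromosome 8, 107580381 to 107588464, minus strand) measured 86.8, 95.3 and 90.1 CPM in the young livers, 63.8, 63.1 and 76.9 CPM in the old control livers, 81.2 and 73.1 in the guide 2 pair and 72.1 and 62 in the guide 4 pair. All old control livers were below all young livers, with a log2 change of -0.42 (SE 0.13) and an adjusted p of 0.0434. The lid gene nearest to no change was Psmd8, at 123, 116 and 119 CPM in the young livers and 83.3, 95 and 118 CPM in the old control livers. Old control replicate 3 reached the young range there, and the log2 fold change of -0.27 (SE 0.15) had an adjusted p of 0.196.

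In the base, the ATPases Psmc4 and Psmc2 fell. Psmc4 (chromosome 7, 28041707 to 28050101, minus strand) stood at 115, 114 and 104 CPM in the young livers, 78.8, 72.9 and 85.7 CPM in the old control livers, 93.7 and 95.6 in the guide 2 pair and 95 and 78.8 in the guide 4 pair. Old control livers were separate from young ones, with a log2 change of -0.49 (SE 0.12) and an adjusted p of 0.0203. Psmc2 (chromosome 5, 21785283 to 21803787, plus strand) measured 128, 142 and 116 CPM in the young livers, 77.2, 84.6 and 99.4 CPM in the old control livers, 102 and 88.8 in the guide 2 pair and 109 and 79.5 in the guide 4 pair. It also separated the control groups, with a log2 change of -0.56 (SE 0.15) and an adjusted p of 0.0266. The ATPase with the smallest difference was Psmc3, at 132, 131 and 119.7 CPM in the young livers and 107, 97.5 and 115 CPM in the old control livers. Its groups did not overlap on the TMM scale either, but the log2 fold change of -0.26 (SE 0.12) did not pass, with an edgeR adjusted p of 0.13. Psmd4, a receptor for ubiquitin chains (chromosome 3, 95032694 to 95042614, minus strand), was at 149, 155 and 136 CPM in the young livers, 138, 100.3 and 102 CPM in the old control livers, 141 and 138 in the guide 2 pair and 132 and 115 in the guide 4 pair. Old control replicate 1 lay within the young range, and the log2 fold change of -0.37 (SE 0.15) had an adjusted p of 0.0979.

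**Figure D2:**
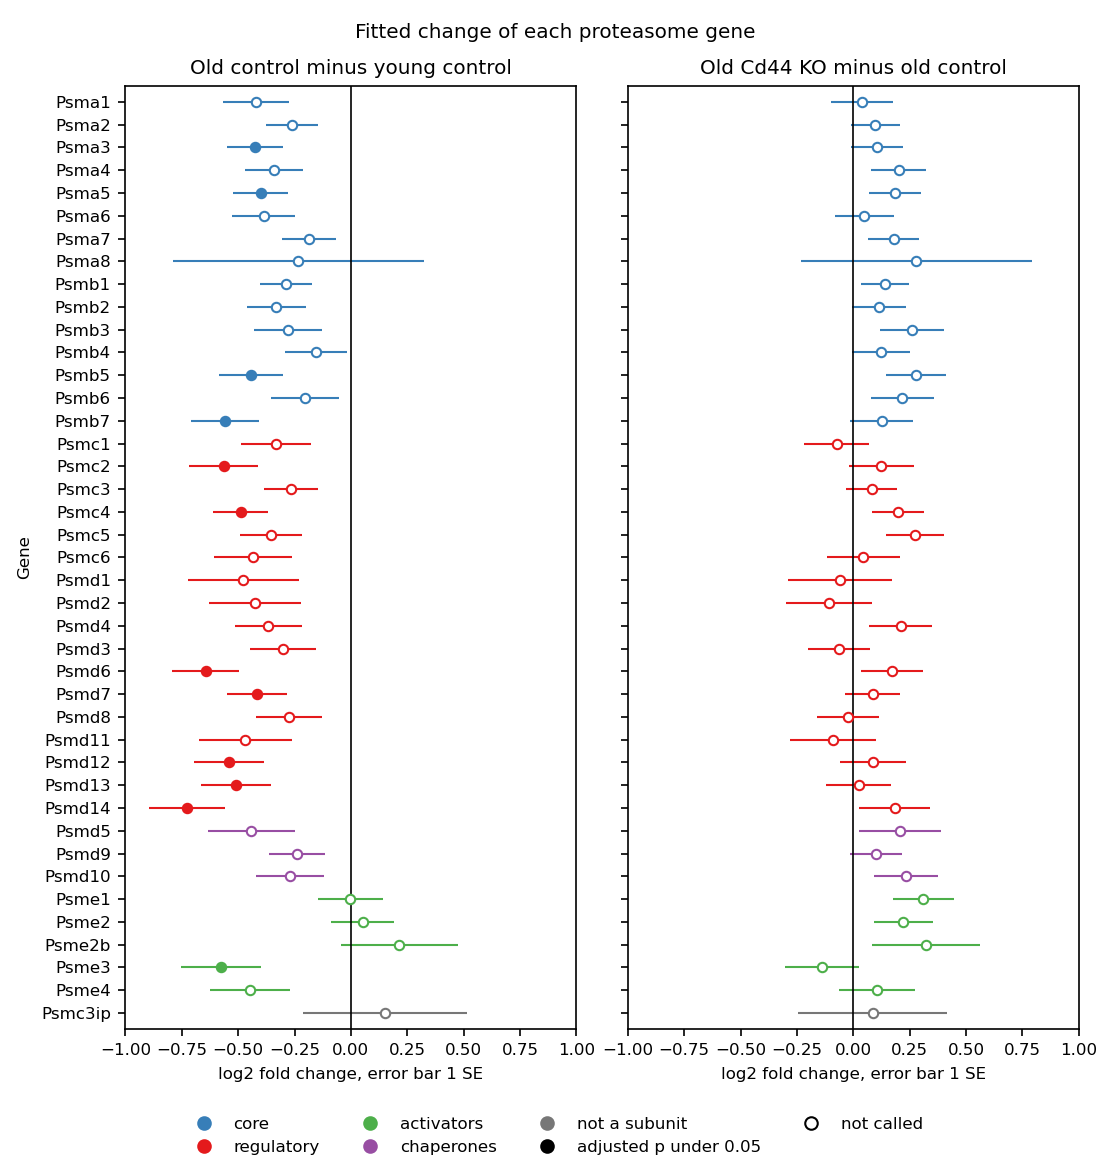
Log2 fold change of each member with 1 SE, age at left and knockout at right, by part of the proteasome; filled points had an adjusted p under 0.05 in edgeR. With age, 12 genes are filled, all to the left of 0 on the TMM scale; with scaling to total counts, 15 of 41 age differences are above 0 and Psmd14 alone is called. None is filled at right.

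The activators split. Psme1 and Psme2 form the ring PA28 alpha-beta, which interferon induces and which serves antigen presentation, and they did not differ past the threshold between old and young controls. Psme1 (chromosome 14, 55578123 to 55581529, plus strand) measured 141, 145 and 119 CPM in the young livers, 144, 142 and 118 CPM in the old control livers, 179 and 187 in the guide 2 pair and 152 and 149.9 in the guide 4 pair. Its old and young control ranges overlapped, with a log2 change of -0.003 (SE 0.14) and an adjusted p of 0.991. Psme2 (chromosome 14, 55587441 to 55591113, minus strand) measured 73.2, 87.8 and 71.6 CPM in the young livers, 91, 81.2 and 68.8 CPM in the old control livers, 95.4 and 104 in the guide 2 pair and 88 and 87.8 in the guide 4 pair, and its log2 fold change was 0.05 (SE 0.14) with an adjusted p of 0.815. The sign of both turned under some alternatives, given in the closing section.

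Psme3, the nuclear activator PA28 gamma (chromosome 11, 101316213 to 101323537, plus strand), fell by 32.8%, with an adjusted p of 0.0396. It stood at 78.1, 99.5 and 78.8 CPM in the young livers, 47.1, 53.6 and 71.4 CPM in the old control livers, 51.5 and 47 in the guide 2 pair and 62.2 and 47.9 in the guide 4 pair. All 7 old livers lay below the 3 young ones on the TMM scale. Psme4, the large activator PA200 (chromosome 11, 30771726 to 30880361, plus strand), was at 87.3, 87.7 and 94.9 CPM in the young livers, 57.1, 54.4 and 86.5 CPM in the old control livers, 79.5 and 76 in the guide 2 pair and 67.6 and 61 in the guide 4 pair. Old control replicate 3 lay just below the lowest young liver and the other old controls far below it, and the log2 fold change of -0.45 (SE 0.18) had an adjusted p of 0.0905. Psme2b is a 1-exon gene of 837 bases, close in name to Psme2, and reads of the pair may have been split between them in a way the sources used here do not give. Its level ranged from 4.25 to 9.63 CPM and its log2 fold change was 0.22 (SE 0.26), with an adjusted p of 0.57.

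The chaperones that build the base had no call with age. Psmd5 (chromosome 2, 34849734 to 34874968, minus strand) was at 37.5, 36.8 and 36 CPM in the young livers, 23.1, 22.9 and 35.2 CPM in the old control livers, 37.7 and 34.1 in the guide 2 pair and 28.8 and 24.4 in the guide 4 pair. Old control replicates 1 and 2 were far below the young livers and replicate 3 close to them, and the log2 fold change of -0.44 (SE 0.19) had an adjusted p of 0.118. Psmd9 (chromosome 5, 123169413 to 123250131, plus strand) was at 37.7, 29.8 and 33.1 CPM in the young livers, 30.4, 28.7 and 26.2 CPM in the old control livers, 31.3 and 27 in the guide 2 pair and 32.2 and 31.5 in the guide 4 pair. Psmd10 (chromosome X, 140948429 to 140956728, minus strand), also known as gankyrin, was at 11.3, 13.6 and 11.7 CPM in the young livers, 8.65, 11.4 and 10.3 CPM in the old control livers, 12.9 and 10.6 in the guide 2 pair and 11.5 and 12.5 in the guide 4 pair. Both overlapped between the control groups. Their log2 fold changes were -0.24 (SE 0.12) and -0.27 (SE 0.15), with adjusted p of 0.178 and 0.213.

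**Figure D3:**
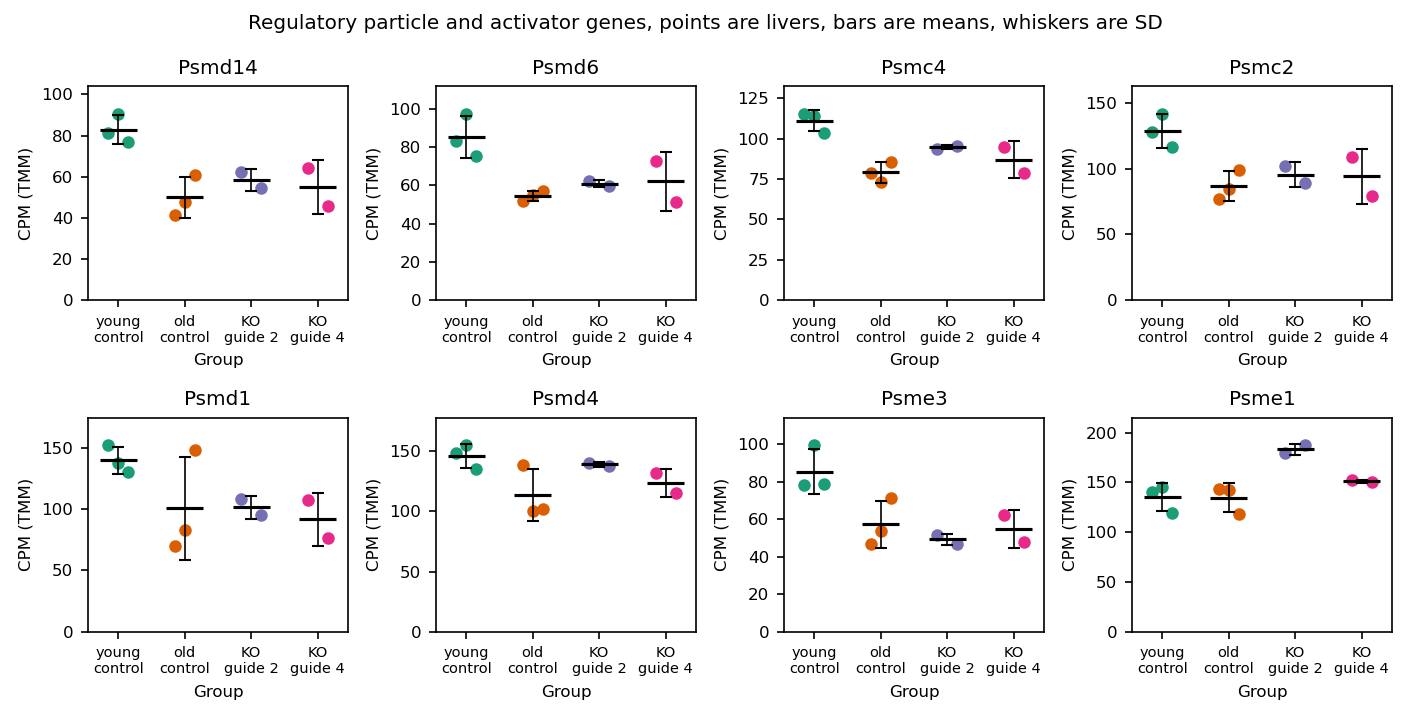
CPM (TMM) of 6 regulatory particle genes and 2 activators in each liver (points), with group means (bars) and SD (whiskers), n = 3, 3, 2 and 2. Psmd14 and Psmd6 are lower in all old livers than in the young ones on this scale, Psmd1 is split by old control replicate 3, and Psme1 is highest with guide 2.

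The number of calls with age rested on single livers. Without young replicate 2 or without old control replicate 2 no member was called, where 1.2% and 2.37% of all genes were called lower. Without young replicate 1 there were 2 calls (4.88%), near the 4.62% of all genes, and without young replicate 3 there were 7 (17.1%) against 3.9%. Leaving out old control replicate 1 gave 10 calls (24.4%) against 7.4% of all genes, 5 of them among the 12. Leaving out old control replicate 3 gave 22 (53.7%) against 17.1%, with 11 of the 12 among them. Every one of these calls was lower. Psmd1, Psmd2, Psmd5, Psmd8 and Psme4 were called, among the fits that leave out 1 liver, only in the one without old control replicate 3, the last 3 of them at log2 fold changes of -0.68, -0.42 and -0.69 (edgeR adjusted p 0.012, 0.0318 and 0.00484). DESeq2 called 18 members lower (43.9%), against 11.5% of all genes. A fit of the control groups alone called 2, Psmd14 and Psmd6 (4.88%), against 3.09% of all genes.

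The particles did not keep the same balance in every liver. The summed CPM of the 15 core genes was 1755 ± 129 (SD, n = 3) for young controls, 1395 ± 89.3 (SD, n = 3) for old controls and 1551 ± 83.3 (SD, n = 4) for the knockout. The 17 regulatory genes summed to 1965 ± 110.2, 1458 ± 223 and 1515 ± 162 CPM. The ratio of the regulatory to the core sum, which no library scaling touches, was 1.15, 1.09 and 1.13 in the young livers, 0.881, 1.01 and 1.26 in the old control livers, 1.04 and 0.958 with guide 2 and 0.999 and 0.906 with guide 4. All 4 knockout livers lay below the 3 young livers in this ratio, whereas the old controls spanned from the lowest to the highest value of the 10 livers.

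Without old control replicate 3 the ratio of the other 2 old controls was 0.944 ± 0.0895 (SD, n = 2), so in the ratio these 2 livers also differed from each other by more than the young ones did. Their core and regulatory sums were 1414 ± 117 and 1329 ± 15.8 CPM (SD, n = 2). Replicate 3 was apart in the regulatory genes. Psmd1, the large scaffold of the base, measured 152, 137 and 130.3 CPM in the young livers and 69.9, 83.3 and 148 CPM in the old control livers. Psmd2, the other scaffold, measured 201, 192 and 205 CPM in the young livers and 116, 128 and 202 CPM in the old control livers. In both genes replicate 3 was within the young range while replicates 1 and 2 were lower. Over the 17 regulatory genes the median log2 difference of replicate 3 from the mean of replicates 1 and 2 was 0.34, while over the 15 core genes it was -0.08. That difference went with transcript length: over the 32 core and regulatory genes, which share the same libraries, Pearson's r with log2 length was 0.63 and Spearman's rho was 0.59, where over 13578 genes with a length r was 0.22 and rho 0.23. Regulatory transcripts were the longer ones, with a median of 1636 bases against 1165 for core transcripts. With length and GC content as offsets, the age medians were -0.29 for core and -0.48 for regulatory genes, and 14 members (34.1%) were called, all lower, against 12.7% of all genes. The median of all genes was -0.04 in that fit, where it was 0.04 without the offsets. The core median minus that of all genes was -0.25 with the offsets and -0.37 without them. The part of RNA quality was not tested. Without replicate 3, the regulatory median with age was -0.60 and the core median -0.33.

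**Figure D4:**
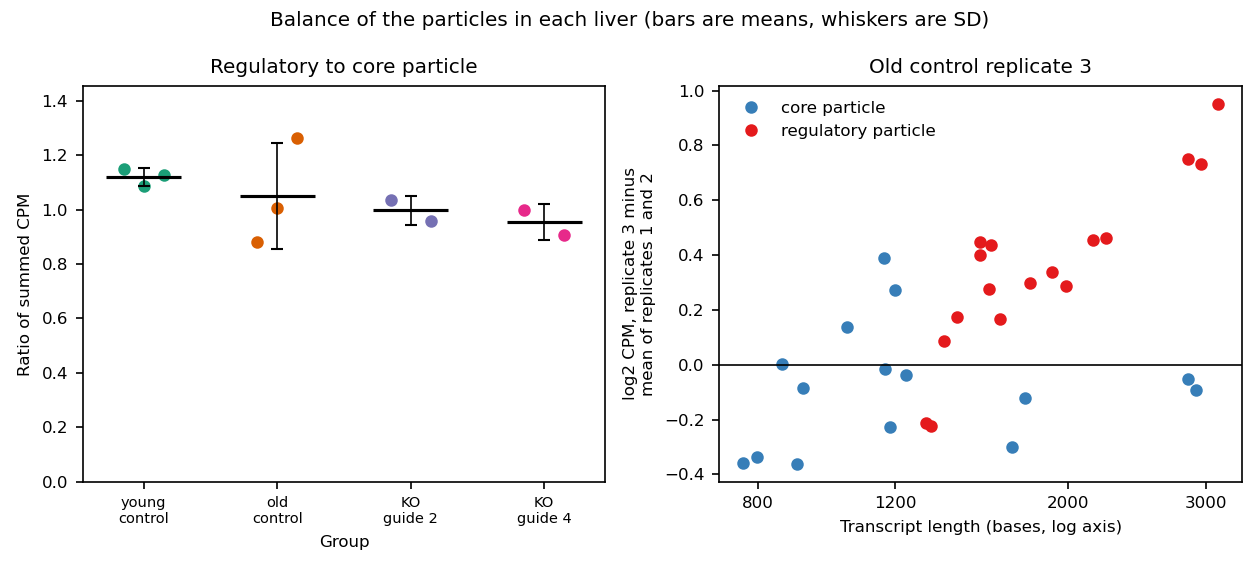
Left, summed CPM of the 17 regulatory genes divided by that of the 15 core genes in each liver (points), with group means (bars) and SD (whiskers). Right, the log2 CPM of each core and regulatory gene in old control replicate 3 minus the mean of replicates 1 and 2, against transcript length. The longest regulatory genes, Psmd1, Psmd2 and Psmd11, are highest in replicate 3.

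The second comparison set old livers labelled Cd44 knockout against old controls. No member was called, and neither was any of the 13909 genes (0%), by edgeR; DESeq2 and limma voom also called 0 members. At an unadjusted p under 0.05 there was 1 member, Psme1 (2.44%), where 6.59% of all genes were. The fold changes were small: 7 of 41 lay below 0, against 54.4% of all genes, and the median was 0.12 over members and -0.02 over all genes. All 15 core genes had a log2 fold change above 0, with a median of 0.14, as did 11 of 17 regulatory genes, with a median of 0.08. Without old control replicate 3 the regulatory median was 0.20 and all 17 were above 0, still with no call. In 2 members, Psma4 and Psme1, every knockout liver was above every old control, which held for 2.84% of all genes.

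The 3 members with the smallest p were an activator, an ATPase and a catalytic subunit. Psme1 stood at 167 ± 19 CPM in knockout livers (SD, n = 4) and 135 ± 14.6 CPM (SD, n = 3) in old controls, a log2 difference of 0.31 (SE 0.14) and an edgeR adjusted p of 0.748. Psmc5, an ATPase of the base (chromosome 11, 106256154 to 106263120, plus strand), measured 101, 119 and 101 CPM in the young livers, 94.7, 80.5 and 75.6 CPM in the old control livers, 105 and 109 in the guide 2 pair and 104 and 86.9 in the guide 4 pair. Both guide 2 livers and 1 guide 4 liver were above the old controls, the other guide 4 liver was within their range, and the log2 difference was 0.27 (SE 0.13) with an adjusted p of 0.748. For Psmb5 the difference was 0.28 (SE 0.13) with an adjusted p of 0.748, and old control replicate 1 overlapped the knockout livers. The log2 differences of Psmb6, Psmb7, Psmd14 and Psmd4 were 0.22 (SE 0.14), 0.13 (SE 0.14), 0.18 (SE 0.16) and 0.21 (SE 0.14), none past the threshold. Transcript length moved with these differences: over the 32 core and regulatory genes Pearson's r with log2 length was -0.62 and Spearman's rho -0.60. That relation rested on old control replicate 3: from mean CPM without it, r was 0.15 and rho 0.12, and with it r was -0.62.

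Old knockout livers were then set against young controls, a comparison that mixes age with the virus label and shares its young livers with the age comparison. Psme3, Psmd14 and Psmd6 were lower, 3 of 41 members (7.32%), where 4.97% of all genes were called lower, and no member was higher, where 6.64% of all genes were. Psme3 fell by 39%, with a log2 change of -0.71 (SE 0.16) and an edgeR adjusted p of 0.0272. Psmd14 fell by 31.5% and Psmd6 fell by 27.9%, with adjusted p of 0.0472 and 0.0476. On the TMM scale, in 21 of 41 members the 4 knockout livers lay below the 3 young ones, which held for 18.8% of all genes. These were 13 of 17 regulatory genes, 6 of 15 core genes, and Psme3 and Psme4. With scaling to total counts, only Psmd14 and Psme3 of the 21 stayed separate and the others overlapped. Psmd6, for example, then reached 76.4 CPM in a knockout liver, where the lowest young liver was at 67.6 CPM. Psme1 and Psme2b had all knockout livers above the young ones, 2 members (4.88%) where 21.1% of all genes had.

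Side by side, the median log2 fold change of the regulatory genes was -0.43 for old controls against young and -0.41 for knockout against young, and that of the core genes was -0.33 and -0.16. Without old control replicate 3 the medians for old controls against young were -0.60 for regulatory and -0.33 for core genes. Psmd14 was -0.73 and -0.54, Psmb5 -0.44 and -0.17, and Psme1 -0.003 and 0.31. In the direct test of knockout against old control, above, none of these genes was called. With scaling to total counts the 3 calls against young were Psme1, Psme2 and Psme2b, all higher (7.32%, against 24% of all genes), in place of the 3 lower ones, and the core median turned to 0.16. DESeq2 called 14 members (34.1%), all lower, against 9.51% of all genes, and a fit of these groups alone called 17 (41.5%), all lower, against 14.1%, while leaving out any 1 young or knockout liver other than guide 4 replicate 1 left no call.

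The guides were also read apart. Guide 2 against old controls gave no member call, where 0.0216% of all genes were called, and 2 members, Psme1 and Psmc5, at an unadjusted p under 0.05 (4.88%), where 7.04% of all genes were. Psme1 with guide 2 had a log2 difference of 0.44 (SE 0.15) and an adjusted p of 0.565, Psmc5 0.36 (SE 0.15) with 0.685 and Psmd5 0.41 (SE 0.19) with 0.718, all by edgeR. In 10 members (24.4%) both guide 2 livers were above all old controls, which held for 9.56% of all genes. Guide 4 gave no call among members or genes (0%), no member at an unadjusted p under 0.05 where 3.91% of genes were, and 4 members (9.76%) with both livers above all old controls, where 7.05% of genes were. Its smallest p belonged to Psmb5, Psmd10 and Psmb6, at log2 differences of 0.25 (SE 0.16), 0.25 (SE 0.18) and 0.24 (SE 0.17) and an adjusted p of 0.98 for each. DESeq2 and limma voom called no member for either guide.

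Between the guides, no member was called, where 0.0216% of genes were, none had an unadjusted p under 0.05, where 4.34% of genes had, and DESeq2 and limma voom called none. Guide 4 was below guide 2 without overlap in 8 members (19.5%), near the 20.4% of all genes. Psmd5 had the smallest p, with a log2 difference of -0.44 (SE 0.21) for guide 4 minus guide 2, then Psme1 with -0.28 (SE 0.16) and Psmd7 with -0.20 (SE 0.16), and the edgeR adjusted p was 0.9996 for each. With 2 livers for each guide, only large differences could have been seen. The median log2 difference from old controls was 0.16 for core genes with guide 2 and 0.12 with guide 4, and 0.11 and 0.03 for regulatory genes.

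The catalytic genes have inducible counterparts, which replace them in the immunoproteasome: Psmb8 for Psmb5, Psmb9 for Psmb6 and Psmb10 for Psmb7. Psmb10 measured 32.8, 36.4 and 29.2 CPM in the young livers, 49.6, 46.6 and 41.9 CPM in the old control livers, 48.8 and 53.5 in the guide 2 pair and 45.7 and 49 in the guide 4 pair. It rose with age, opposite to Psmb7, with a log2 change of 0.49 (SE 0.12) and an edgeR adjusted p of 0.0197. Psmb8 had a log2 change of 0.47 (SE 0.16) with an adjusted p of 0.0541, and Psmb9 of 0.18 (SE 0.19) with 0.521. Knockout livers had more of Psmb8 and Psmb10 than young livers, by 0.76 (SE 0.15) and 0.59 (SE 0.12) on the log2 scale, with adjusted p of 0.0186 and 0.0179.

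A ratio of inducible to constitutive gene within a liver does not depend on the scaling. Psmb10 to Psmb7 was 0.196, 0.200 and 0.192 in the young livers, 0.505, 0.436 and 0.311 in the old control livers, 0.363 and 0.465 with guide 2 and 0.34 and 0.442 with guide 4. Every old liver was above every young liver, by a mean log2 difference of 1.06 for old controls and 1.02 for knockout livers. Psmb8 to Psmb5 was 0.532, 0.596 and 0.512 in the young livers, 0.828, 1.29 and 1.05 in the old control livers, 1.16 and 1.1 with guide 2 and 0.95 and 0.961 with guide 4, again without overlap between old and young, by 0.93 and 0.93. Psmb9 to Psmb6 was 0.165, 0.202 and 0.212 in the young livers, 0.18, 0.365 and 0.235 in the old control livers, 0.336 and 0.299 with guide 2 and 0.242 and 0.259 with guide 4, where old controls overlapped the young livers and knockout livers did not. In a two-sided exact permutation test on the log2 ratios the smallest p possible is 0.1 for 3 against 3 livers, which Psmb10 to Psmb7 and Psmb8 to Psmb5 reached, and 0.0571 for 4 against 3, which all 3 ratios reached for knockout against young. Adjusted over the 9 tests these were 0.18 and 0.171, so this design could not pass the threshold. Knockout against old control gave exact permutation p of 0.571 for Psmb9 to Psmb6 and of 1 for the other 2.

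**Figure D5:**
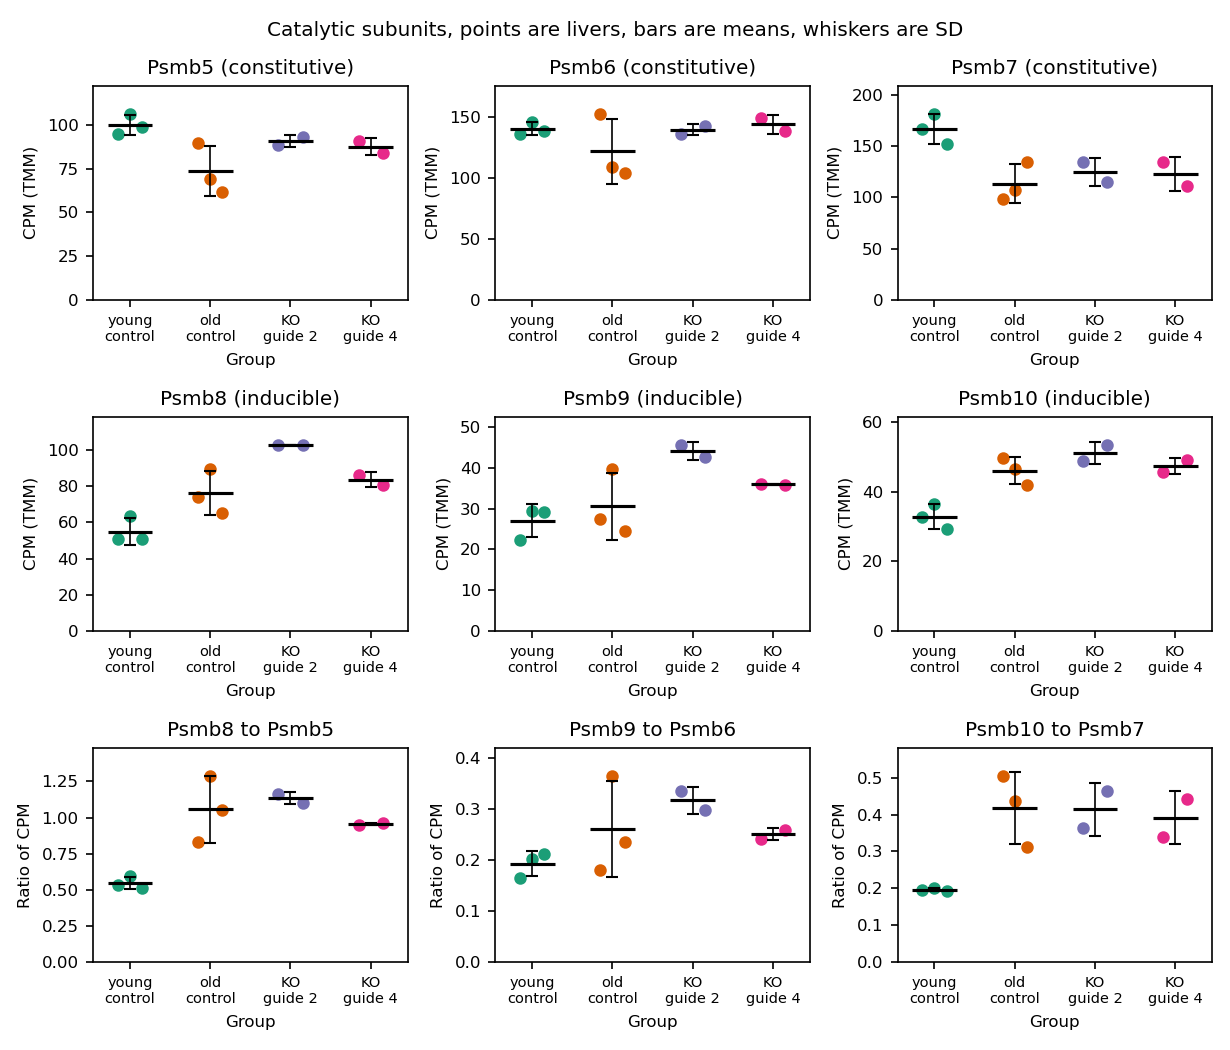
Top, CPM (TMM) of the constitutive catalytic genes. Middle, CPM (TMM) of their inducible counterparts. Bottom, the ratio of inducible to constitutive gene in each liver. Points are livers, bars means and whiskers SD; ratios for Psmb8 to Psmb5 and Psmb10 to Psmb7 are higher in all 7 old livers than in the 3 young ones.

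Markers of immune and other non-hepatocyte cells were higher in old controls alongside these genes. With age, 14.1% of all genes tested were called higher and 8.66% lower. Of Kupffer cell and macrophage markers 7 of 9 were called higher with age, the sum ranging from 224 to 340.2 CPM in young, 418 to 1577 in old control and 343 to 744 in knockout livers. For endothelium the count was 8 of 10, with sums of 194.6 to 277, 406 to 437 and 273 to 338 CPM. T and NK cell markers (4 of 7 higher, 3.17 to 4.42 CPM in young and 4.39 to 53.5 in old control) and B and plasma cell markers (4 of 5, 3.42 to 7.71 and 8.01 to 33.2) were called in the same direction. So were neutrophil markers (4 of 5, 3.67 to 9.73 and 14.5 to 284.8) and stellate cell markers (5 of 8, 152 to 259 and 311 to 495). In knockout livers these sums were 10.3 to 28, 20.5 to 28.4, 7.79 to 22.7 and 268 to 315 CPM, in the same order. Old control replicate 2 had the highest of each of these sums, and of the macrophage sum, among the 10 livers. For neutrophils the other old controls had 16.1 and 14.5 CPM. Old control replicate 3 had the lowest T and NK and B cell sums of the old livers. Of cholangiocyte markers none of 5 was called, and of hepatocyte markers 1 of 9 was lower, near the 8.66% of all genes. No listed marker was called between knockout and old control livers, where none of the 13909 genes was called (0%), so no list could hold a call. The endothelial sums of knockout livers all lay below those of old controls, while the other sums overlapped. The part of cell composition in the members' differences was not tested.

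Genes that work with the proteasome but lie outside the name rule were counted from fixed lists. Over all genes tested, 8.66% were called lower with age and 14.1% higher. Of 3 measured subunits outside the pattern, Adrm1, the ubiquitin receptor of the base, fell with age by 36.2% (114 ± 11 CPM (SD, n = 3) in young and 72.8 ± 5.96 CPM (SD, n = 3) in old control livers, edgeR adjusted p of 0.00992), while Shfm1, a small lid subunit, and Psmf1, a proteasome inhibitor, had no call. Of 5 chaperones of core assembly, such as Pomp, none was called. Of 15 ubiquitin shuttles and enzymes that bind the proteasome, 5 fell and none rose, with a list median of -0.35: the shuttle Ubqln1 by 37.4%, Txnl1 by 31.6%, the ligase Ube3a by 29.6%, Ubqln4 by 22.9% and the deubiquitinase Usp14 by 29.6%.

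Of 13 genes of the segregase p97 and its cofactors 3 fell, with a list median of -0.30: Ubxn4 by 44.3%, Ufd1l by 25.4% and Derl1 by 25.5%. Of 11 genes of the NFE2L1 route 1 fell, a share near the 8.66% of all genes called lower. It was the membrane ligase Syvn1, from 565 ± 183 CPM (SD, n = 3) in young to 122 ± 25.3 CPM (SD, n = 3) in old control livers, with an edgeR adjusted p of 0.0154. Nfe2l1 itself had a log2 change of -0.25 (SE 0.17) with an adjusted p of 0.297. Of 6 ubiquitin genes and E1 enzymes none was called, with a list median of 0.03. No gene of these lists was called between knockout and old control livers, where none of the 13909 genes was (0%).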

How the data were processed

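RNA of 10 whole livers was sequenced after polyA selection and Watchmaker library preparation on the AVITI platform, per the labels' protocols. The authors deposited raw counts per gene symbol, 1 column per liver. The submitters' processing notes name FastQC 0.11.8, Trim Galore 0.4.4, STAR 2.5.3a, HOMER and the build mm10, with no role or order. Neither the gene annotation nor the strand setting is named; both are not given in the sources used here.

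From these counts, edgeR 4.0.16 in R 4.3.3 was fitted to all 10 livers with TMM factors and filterByExpr (minimum count 10), which kept 13909 of 24537 symbols. The biological coefficient of variation was 21.8%. Separate coefficients stood for young control, old control and knockout, and a further fit split the knockout by guide. Quasi-likelihood p-values were adjusted over all genes tested and called under 0.05. SE is the log2 fold change divided by the square root of F. Ratios of catalytic genes were compared by exact permutation in scipy 1.17.1. Transcript lengths came from GENCODE M21 (GRCm38) for 97.62% of the genes tested, and promoters from RefSeq. The fitting scripts were tested on simulated data. Alternatives used DESeq2 1.42.0, limma 3.58.1 (voom), other scalings, no filter, fewer groups and each liver left out. A fit with length and GC offsets (mgcv 1.9.3) was added after seeing the data.

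The members and lists were chosen with earlier results of these data known. Genes named in every liver are the catalytic subunits, Psmd14, Psmd4, the activators and chaperones, up to 5 called members per comparison and direction by smallest p (3 by unadjusted p where none was called), and the extremes with age in each part. Psmd1 and Psmd2 were named after their values were seen.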

Additional observations from a re-analysis of the deposited data

Results flagged for a closer look

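In 3 members 1 knockout liver lay far from the other 3, by the gap to its nearest neighbour as a share of the range of the 4 livers. Of 47 values tested, 2.35 would be flagged by chance at 1 in 20. For Psma3, an alpha subunit, the share was 0.9142: guide 4 replicate 1 was highest at 150.2 CPM, with the others at 123.9 to 126.2. For Psmc4, an ATPase, it was 0.8894: guide 4 replicate 2 was lowest at 78.8 CPM, with the others at 93.7 to 95.6. For Psmd9, a chaperone, it was 0.8316: guide 2 replicate 2 was lowest at 27.0 CPM, with the others at 31.3 to 32.2.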

How the results depend on the processing

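The calls with age depend on scaling and on single livers. The 12 members called with age (29.3%, against 8.66% of all genes called lower) became 5 with upper quartile factors (12.2% against 5.2%) and 1 with total counts (2.44% against 2.55%). There were 2 with the control groups alone (4.88% against 3.09%), 18 with DESeq2 (43.9% against 11.5%) and 14 with the length and GC offsets (34.1% against 12.7%). Limma voom and RLE factors each called 12 (29.3%), against 8.06% and 8.73% of all genes. Without the filter there were 9, a fit whose share of all genes was not taken. Leaving out 1 liver gave between 0 and 22 calls, with shares given above. The count was 0 without young replicate 2 or old control replicate 2, and 2 without young replicate 1. It was 7 without young replicate 3, 10 without old control replicate 1 and 22 without old control replicate 3. The 3 called for knockout against young (7.32%, against 4.97% of all genes called lower) became 14 with DESeq2 (34.1% against 9.51%) and 4 with RLE factors (9.76% against 5.29%). Limma voom and upper quartile factors each called 1 (2.44%), below the 3.91% and 3.09% of all genes. There were 17 with only the groups compared (41.5% against 14.1%) and 7 with the length and GC offsets (17.1% against 8.01%). Without the filter there was 1, again with no share taken. Leaving out 1 liver gave between 0 and 3 calls, the 3 (7.32% against 5.63%) without guide 4 replicate 1. The cause was not tested. For knockout against old control, each guide and the guides against each other, the count was 0 in every alternative run.

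With total counts 15 members had a log2 fold change with age above 0, where 3 did on the TMM scale. Of the genes given in every liver or as extremes, it turned above 0 for Psmb4 (0.16), Psmb6 (0.11), Psmc3 (0.040), Psmd10 (0.039), Psmd8 (0.020), Psmd9 (0.071) and Psme1 (0.32), and for Psme1 also with upper quartile factors (0.11). Leaving out 1 liver moved Psme1 between -0.086 and 0.085, Psme2 between -0.047 and 0.15, and Psme2b between -0.036 and 0.42.

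The labels give no pairing of livers between groups, so no paired analysis was made. They give no replicate numbers either, and those used here follow the order of the samples within each group. Groups of 2 to 4 livers limit the precision, and counting depth limits Psma8.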
